A study of Mus musculus with 4 samples.

Results

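The T-box genes studied here are brachyury (symbol T), Eomes, Tbx1, Tbx2, Tbx3, Tbx4, Tbx6, Tbx15, Tbx20 and Mga, 10 genes taken by symbol from the 46603 gene IDs of a transcriptome table of mouse embryonic stem cells. Polyadenylated RNA was sequenced from 2 samples of wild-type cells (Gsk3a+/+;Gsk3b+/+) and 2 samples of cells without both forms of glycogen synthase kinase 3 (Gsk3a-/-;Gsk3b-/-). All cells were kept in serum and leukaemia inhibitory factor over a layer of irradiated fibroblasts, so feeder cells share the dish with the stem cells. The sample labels enter embryonic day 16 as the age while the design text differs, so that a cell line name rather than a day could be meant, and neither describes the alleles, the number of clones or how the replicates were separated. The p-values therefore measure the spread between these samples, which may be technical. The table compares a group A with a group B, and the sources used here do not tie A or B to a genotype, so every difference below is that of group B over group A.

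T-box proteins bind DNA through a shared domain, the T-box, and many of them direct the choice of tissue fate in the embryo. Brachyury marks the primitive streak and later the notochord, and it is a classical transcriptional target of Wnt signalling through beta-catenin and TCF/LEF factors. Glycogen synthase kinase 3 marks beta-catenin for degradation. Tbx3 is expressed in embryonic stem cells themselves, where it is counted among the factors of naive pluripotency, and Mga is a broadly expressed repressor that pairs with Max.

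The deposited table holds group means, from which whole reads of the 2 libraries of each group could be recovered (A1 and A2, B1 and B2, numbers that are not those of the labels). Where 4 values follow each other, they are those of A1, A2, B1 and B2 in this order. Library totals ranged from 112655210 to 146326307 reads. Values are normalized counts, that is reads divided by the size factor of the library. Of the targeted genes, Gsk3a was at 6353, 7104, 1697 and 1347 normalized counts, and Gsk3b was at 5438, 6285, 5051 and 5002. All 12 pluripotency markers had counts in every library, led by Dppa5a (247702 to 270540) and Pou5f1 (93404 to 125786), and 8 of them were lower in both B libraries than in both A libraries, against 26.0% of all genes whose mean reached 10. Of the 12, 3 were called lower in the authors' deposited table (Utf1, Fgf4 and Lin28a) and 0 higher, against 1.92% and 1.54% of all genes tested. Limma on the recovered counts called 1 of the 12, Utf1 (adjusted p = 0.0312), against 2.01% of all genes whose mean reached 10. In limma Fgf4 (adjusted p = 0.0649) and Lin28a (adjusted p = 0.0808) missed the threshold. The 20 feeder fibroblast markers, led by Col1a2 and Col1a1, summed to 143524, 69542, 47310 and 209040. The 17 endoderm markers, led by Sparc and Col4a1, summed to 135326, 103015, 396697 and 213606. In bulk RNA, fewer cells of a type and less RNA per cell cannot be told apart.

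Of the 10 T-box genes, T was higher and Tbx20 lower in group B past an adjusted p of 0.05 in the authors' deposited table, and 8 did not pass. The same threshold called 3.46% of the 30237 genes tested, 1.54% as higher and 1.92% as lower. All 10 genes reached a mean of 10 normalized counts, and 9 reached 50. In the authors' deposited table their median log2 fold change was 0.33, against 0.01 over the 20465 genes whose mean reached 10. Both B libraries lay above both A libraries for 5 of the genes (T, Eomes, Tbx1, Tbx2 and Tbx3) and below them for Tbx20, which leaves 4 with overlapping groups. Of all genes whose mean reached 10, 26.4% had both B libraries above, 26.0% had both below, and 52.5% did not overlap in all, so 6 of 10 is close to the background. In limma on the recovered counts, which called 2.01% of those genes, T alone of the 10 passed. All limma values below are log2 fold changes.

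**Figure D1:**
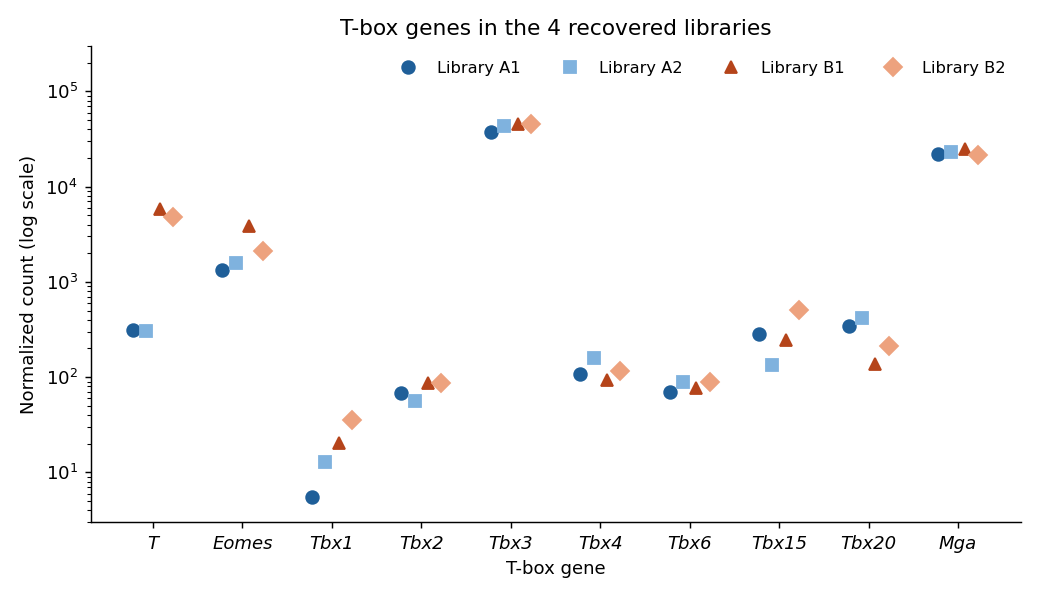
Normalized counts (log scale) of the 10 T-box genes, with 1 point for each of the libraries A1, A2, B1 and B2. The B libraries of T stand at 5830 and 4799 against 312 and 303 in the A libraries, and Tbx3 and Mga stay near the top in all 4 libraries.

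**Figure D2:**
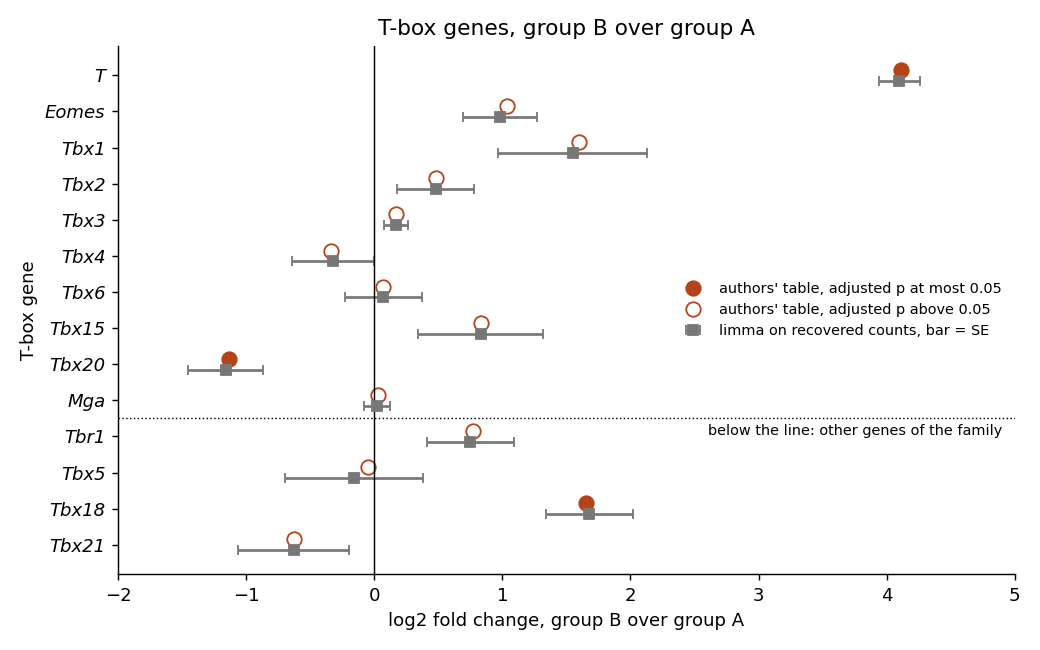
Log2 fold change of group B over group A for the 14 T-box genes whose mean reached 10, from the authors' deposited table (circles, filled at an adjusted p of at most 0.05) and from limma on the recovered counts (squares with bars of 1 SE). T, Tbx20 and Tbx18 are the filled circles, and T lies farthest from 0 at 4.11.

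T (ENSMUSG00000062327, chromosome 17, 8434423 to 8442496, plus strand, mm10) showed the greatest difference of the family. Its normalized counts were 312, 303, 5830 and 4799, from 339, 306, 6359 and 4059 reads. The A libraries were nearly equal, with a mean of 307 ± 6.88 (SD, n = 2), and the B libraries, at 5314 ± 729 (SD, n = 2), stood far above both. The authors' deposited table gives T a fold change of 17.3 and an adjusted p of 3.51e-38, the 4th smallest of the 30237 genes tested. Among the 449 genes called higher whose mean reached 50, the log2 fold change of T, 4.11 in the authors' deposited table, ranked 2nd. In limma it was 4.10 (SE 0.16, adjusted p = 0.00782). With limma and 1 library left out the log2 fold change of T stayed between 3.96 and 4.24, and the call was lost without A1 (adjusted p = 0.0924) and without A2 (adjusted p = 0.214). Those fits take the spread from B1 and B2 alone and call 0 genes of the whole table, with 2420 and 2034 genes at an unadjusted p under 0.05.

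The sequence before the start site of T is shown because T rose and its promoter is a textbook site of TCF/LEF binding, and that of Tbx20 because Tbx20 fell. The sequences are those of RefSeq (GRCm38.p6), 250 bases up to the base before the start, and capitals mark a match to the TCF/LEF core, searched on both strands as CTTTG followed by any 2 letters of A and T.
T, chr17:8434173-8434422, plus strand: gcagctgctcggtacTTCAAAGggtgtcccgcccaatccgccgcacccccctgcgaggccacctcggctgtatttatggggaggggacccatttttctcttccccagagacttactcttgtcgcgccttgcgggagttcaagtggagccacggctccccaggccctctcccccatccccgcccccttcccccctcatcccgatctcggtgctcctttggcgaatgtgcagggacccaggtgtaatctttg
Tbx20, chr9:24774304-24774553, minus strand: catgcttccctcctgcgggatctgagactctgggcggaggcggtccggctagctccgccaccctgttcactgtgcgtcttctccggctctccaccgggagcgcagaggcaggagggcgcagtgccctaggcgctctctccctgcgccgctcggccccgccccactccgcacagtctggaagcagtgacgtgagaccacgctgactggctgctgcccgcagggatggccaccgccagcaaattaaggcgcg

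The match in T is CTTTGAA on the minus strand, and its first base on the printed strand lies at -235 from the start. Promoter sequences of 300 bases, 250 before and 50 from the start, were at hand for 7 of the 10 genes (T, Eomes, Tbx1, Tbx4, Tbx6, Tbx20 and Mga; Tbx1 has 2 start sites). T was the 1 gene of these 7 with a match to the TCF/LEF core in that window. Of all 32851 promoters of this length in the table, 16.9% held a match. Counted by gene, 18.9% of the 27025 genes with such a promoter had a match, so 1 of 7 is near that share. The T-box half-site GGTGTGA, searched on both strands, was found in none of the 7, in 3.98% of all promoters and in 4.6% of the 27025 genes. A match describes the letters of this window alone.

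The genes on either side of T were at low levels. T2, a protein-coding gene 10.9 kb before it, was at 16.6, 25.7, 16.5 and 43.7 normalized counts. Pde10a, a phosphodiesterase gene 82.9 kb after it, was at 146, 113, 112 and 357. Both are highest in B2, where the sum of feeder markers is also highest, and both have an adjusted p of 1 in the authors' deposited table. Within group A the feeder sum is higher in A1, as is Pde10a, while T2 is higher in A2. The part of feeder cells in the values of T2 and Pde10a was not tested.

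Among the 16553 genes whose mean reached 50, the pattern nearest to that of T was that of Cpxm2. Likeness was the Euclidean distance over the 4 libraries of log2(normalized count + 1) after subtraction of each gene's mean. Cpxm2, a member of the carboxypeptidase family, was at 158, 124, 1866 and 1764 normalized counts, at a distance of 0.489. Next came the serotonin receptor gene Htr5a (0.499), BC021891 (0.654), Sp5 (0.663), a transcription factor gene induced by beta-catenin, and Mogat2 (0.728), which encodes an acylglycerol acyltransferase. In all 5 the B libraries lay above both A libraries, and the level of BC021891 in group A rested on few reads, with 7.37 and 8.90 normalized counts. T was chosen with this pattern known, so the ranking is a description.

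**Figure D3:**
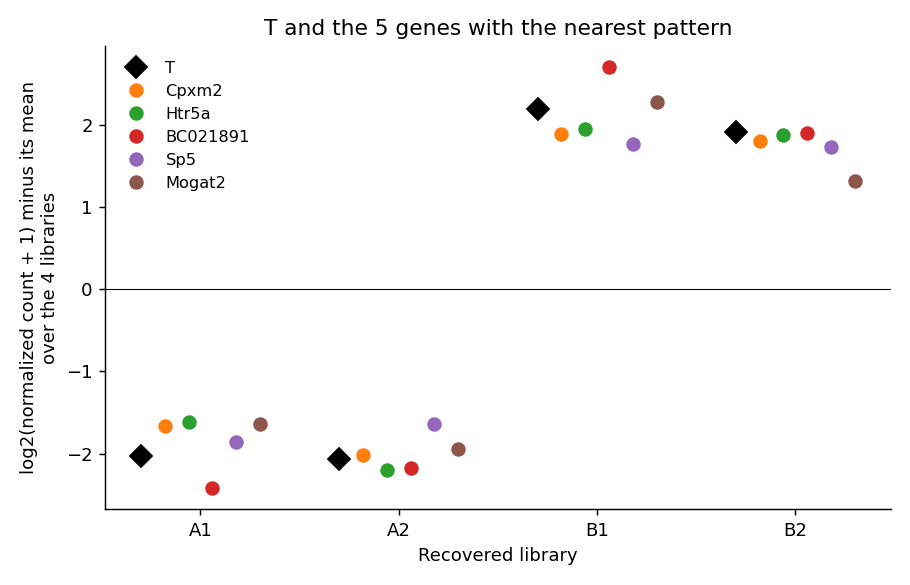
Log2(normalized count + 1) minus its mean over the 4 libraries, for T (diamonds) and the 5 genes nearest to it, by library. All 6 genes lie below 0 in A1 and A2 and above 0 in B1 and B2.

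Eomes (ENSMUSG00000032446, chromosome 9, 118478212 to 118486132), a T-box factor of the streak, of definitive endoderm and of trophoblast, was at 1323, 1583, 3850 and 2122 normalized counts. Both B libraries were higher, but B1 exceeded B2 by more than B2 exceeded A2. The authors' deposited table gives a fold change of 2.06 (adjusted p 0.522). On the log2 scale limma gave 0.98 (SE 0.29, adjusted p = 0.142), 0.55 without B1 (adjusted p = 0.149) and 1.41 without B2 (adjusted p = 0.0128). Fits without B1 or B2 take the spread from A1 and A2 alone, the pair that differs less over all genes, and they call 997 and 1111 genes of the whole table against 411 with all libraries.

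Markers of other cell types that express Eomes were read beside it. Of the 17 endoderm markers 1 was called higher and 0 lower in the authors' deposited table, and limma called 4. Over all genes tested 1.54% were called higher and 1.92% lower, and limma called 2.01% of those whose mean reached 10. The gene called in the deposited table was Foxa1, an endoderm transcription factor, at 23.0, 30.7, 270 and 144 normalized counts (adjusted p 0.0192). Both B libraries lay above both A libraries for 10 of the 16 endoderm markers whose mean reached 10, against 26.4% of all such genes, and below them for 1. In their sum, as in Eomes, B1 exceeded B2. Within group A the orders differed, with the sum higher in A1 (135326 against 103015) and Eomes higher in A2 (1583 against 1323). Of those that did not pass, Sox17, a definitive and primitive endoderm factor, was at 271, 140, 3231 and 1427 normalized counts, and Gata6, which specifies primitive endoderm, at 744, 535, 8215 and 3503. Others had no such difference or the opposite one, such as the nuclear receptor gene Hnf4a at 1826, 1445, 1529 and 1423, the endocytic receptor gene Cubn at 4076, 1829, 3504 and 398, and the transthyretin gene Ttr at 26.7, 12.9, 3.67 and 3.55. None of the 17 endoderm markers was at 0 in all libraries, although the serum protein gene Afp had no read in A2 and B2. The 12 trophectoderm markers, led by Krt8 and Tead4, summed to 13176, 12545, 25591 and 19639, and 1 of them, the keratin gene Krt18, was called higher in the authors' deposited table and 0 lower. Of the 11 with a count, 6 were above both A libraries in both B libraries and 2 were below. Among the transcription factors that define trophoblast, Cdx2 was at 59.0, 27.7, 496 and 132 and Elf5 at 8.29, 9.89, 31.2 and 8.28. Ascl2 was at 372, 944, 248 and 246, Gata3 at 127, 53.4, 30.3 and 61.5, and Esx1 at 0 throughout. The part of these cell types in the Eomes values was not tested.

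**Figure D4:**
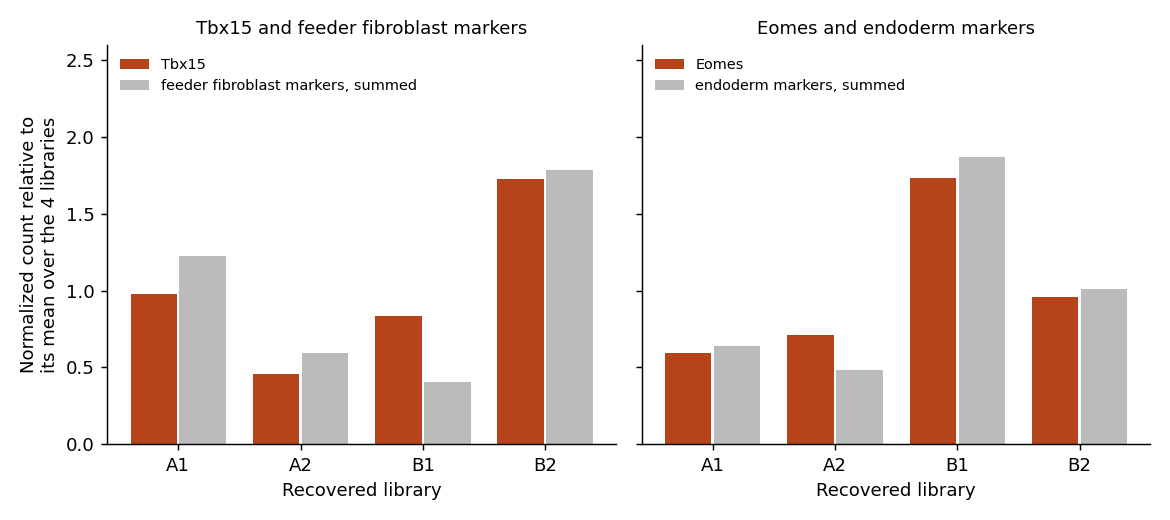
Normalized counts of Tbx15 beside the sum of 20 feeder fibroblast markers (left) and of Eomes beside the sum of 17 endoderm markers (right), each divided by its mean over the 4 libraries. Tbx15 and the summed feeder markers are highest in B2, and Eomes and the summed endoderm markers are highest in B1. Tbx15 is lowest in A2 and the feeder sum in B1. Eomes is higher in A2 than in A1, and the endoderm sum is higher in A1.

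Tbx6 (ENSMUSG00000030699, chromosome 7, 126781483 to 126785560), which acts in paraxial mesoderm and is known to be activated after T in the embryo, did not differ beyond its spread. It was at 70.0, 89.0, 77.9 and 88.7 normalized counts, and the groups overlapped. Limma put the log2 fold change at 0.07 (SE 0.30, adjusted p = 0.926). The authors' deposited table likewise gives 0.07, with an adjusted p of 1.

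Tbx3 (ENSMUSG00000018604, chromosome 5, 119670669 to 119684724) was the most abundant of the 10 genes. It was at 37525, 43275, 45076 and 45896 normalized counts, which ranked its overall mean 532nd of the 30237 genes tested. The B libraries were above both A libraries by little, and A1 and A2 differed by more than A2 and B1. Limma gave 0.17 on the log2 scale (SE 0.09, adjusted p = 0.36), and the adjusted p is 1 in the authors' deposited table. An antisense gene, Tbx3os1, shares 115 bases of exon with Tbx3, and with no strand setting stated for the counting, their shared reads cannot be told apart. Tbx3os1 had 165 to 312 reads per library and Tbx3 had 38820 to 49168. Tbx3os2, a long non-coding RNA gene 0.371 kb after Tbx3, was at 99.5, 62.3, 126 and 199 normalized counts, with both B libraries above both A libraries and an adjusted p of 0.515 in the authors' deposited table.

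Tbx2 (ENSMUSG00000000093, chromosome 11, 85832551 to 85841948), a repressor closely related to Tbx3, was at 68.2, 56.4, 86.2 and 87.5 normalized counts. The B libraries were nearly equal and above both A libraries. The difference did not pass, with a log2 fold change of 0.48 (SE 0.30, adjusted p = 0.427) in limma. Tbx4 (ENSMUSG00000000094, chromosome 11, 85886422 to 85916097), its neighbour on the chromosome and a gene of hindlimb and lung development, was at 109, 158, 93.5 and 117. Here the groups overlapped, and limma gave -0.32 (SE 0.32, adjusted p = 0.621).

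Tbx20 (ENSMUSG00000031965, chromosome 9, 24718138 to 24774303, minus strand), a factor of the developing heart, was the 1 gene of the 10 called lower in the authors' deposited table. It was at 347, 416, 136 and 213 normalized counts. All reads together were 798 in group A and 328 in group B, and both B libraries lay below both A libraries. The authors' deposited table gives a log2 value of -1.13 (adjusted p 0.00217). In limma the size was alike, -1.16 (SE 0.29), and the call was lost (adjusted p = 0.109). Without 1 library limma gave between -0.83 (without B1) and -1.48 (without B2), and of these fits the one without B2, whose spread comes from A1 and A2 alone, passed (adjusted p = 0.0344).

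Tbx1 (ENSMUSG00000009097, chromosome 16, 18580979 to 18590671), a pharyngeal and cardiac factor, was the least abundant of the 10. It had 6, 13, 22 and 30 reads, or 5.53, 12.9, 20.2 and 35.5 normalized counts. The 19 reads of group A have an exact Poisson 95% interval of 11.4 to 29.7 and the 52 of group B one of 38.8 to 68.2, which cover counting error only. Both B libraries were higher, and with A1 and A2 differing by 1.09 on the log2 scale the difference did not pass (limma 1.55, SE 0.58, adjusted p = 0.216). The fold change in the authors' deposited table is 3.03 (adjusted p 0.623).

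Tbx15 (ENSMUSG00000027868, chromosome 3, 99240381 to 99354259), a gene of limb and skin mesenchyme, was at 286, 134, 244 and 504 normalized counts. The groups overlapped. On the log2 scale A2 was at -1.09 relative to A1 and B2 at 1.04 relative to B1, each a wider gap than that between the groups, for which limma gave 0.83 (SE 0.49, adjusted p = 0.396). The sum of the 20 feeder fibroblast markers was likewise highest in B2 and second in A1, but B1, lowest in that sum, was above A2 in Tbx15. Singly, 14 of the markers were highest in B2, 5 in A1 and 1, Pdgfra, in B1. Pdgfra, at 1139, 770, 7979 and 3608 normalized counts, was also the 1 marker with both B libraries above both A libraries. Of all genes whose mean reached 10, 26.4% had both B libraries above. Of the 17 endoderm markers, 13 were likewise highest in B1, 3 in A1 and 1 in A2. All 20 feeder markers had counts in every library. Of them 0 passed in the authors' deposited test, with 1 at an unadjusted p under 0.05 and 1 called by limma. Over all genes tested the authors' test called 3.46%, with 3181 of 30237 at an unadjusted p under 0.05. Limma called 2.01% of those whose mean reached 10. The part of feeder cells in the Tbx15 values was not tested.

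Mga (ENSMUSG00000033943, chromosome 2, 119897228 to 119969581), which carries a T-box and a basic helix-loop-helix domain, was at 22120, 22979, 24643 and 21274 normalized counts. The B libraries lay on either side of the A libraries. Limma gave 0.02 on the log2 scale (SE 0.10, adjusted p = 0.933), the second smallest SE of the 10 after Tbx3.

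Per kilobase of exon, T stood higher in the order of levels in group B than in group A, and 5 of the 10 genes had the same place in both. In group A the order was Tbx3 with a mean of 6100 normalized counts per kilobase, Mga (1470), Eomes (350), T (133), Tbx15 (56.2), Tbx6 (44.1), Tbx4 (39.2), Tbx20 (31.8), Tbx2 (17.2) and Tbx1 (2.61). The ranges of Tbx15, Tbx6, Tbx4 and Tbx20 overlapped from each to the next, and all other neighbours in that order were apart. In group B, T stood second at 2300, between Tbx3 (6870) and Mga (1500), and its lowest library (2070) was above the highest of Mga (1610). Tbx20 fell to 14.5 per kilobase, below Tbx2 (23.9), and no neighbours of the group B order overlapped. Lengths are those of all annotated exons, and an unused exon lowers the value.

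**Figure D5:**
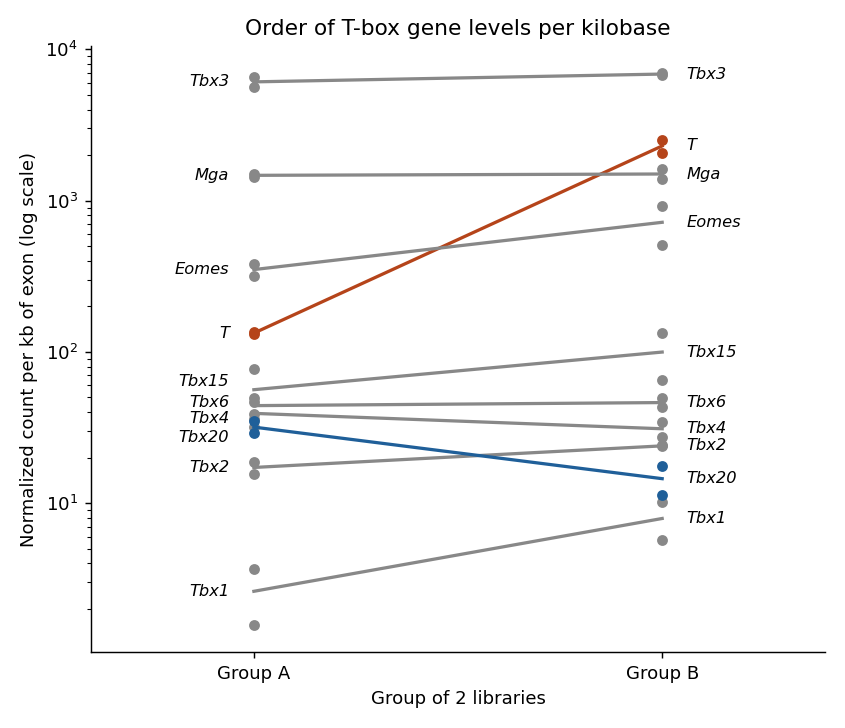
Normalized counts per kilobase of exon (log scale) of the 10 T-box genes in group A and group B, with points for the 2 libraries of each group and lines between the group means. T crosses Mga and Eomes on its way from 133 to 2300, and Tbx20 crosses Tbx2 on its way from 31.8 to 14.5.

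The 7 further genes that complete the family as listed here are Tbr1, Tbx5, Tbx10, Tbx18, Tbx19, Tbx21 and Tbx22. Of the 6 with a count, 1 passed in the authors' deposited table, against 3.46% of all genes tested. That gene was Tbx18, a factor of the epicardium and sinus node, at 106, 63.3, 234 and 298 normalized counts. Its log2 fold change was 1.65 by the authors' deposited table (adjusted p 0.000113), and limma gave 1.68 (SE 0.34, adjusted p = 0.0701), which misses the threshold. A transcript on the opposite strand, D030062O11Rik, overlaps 970 bases of Tbx18 exon but had 2 to 25 reads per library against 64 to 255. Tbr1, a factor of cortical neurons, was at 38.7, 45.5, 82.5 and 61.5, and Tbx21, the T helper cell factor, at 33.2, 27.7, 15.6 and 23.6. The groups of both were apart, and neither passed. Tbx5, a heart and forelimb gene, had 20, 20, 12 and 22 reads, Tbx10 had 1 to 17 reads per library and Tbx19 had 0 to 8. Tbx22 had no read in any library.

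Genes that accompany T in the primitive streak were called in both directions. Of 20 streak genes with a count (21 listed, T itself not among them), 4 were called higher and 1 lower in the authors' deposited table. Over all genes tested the shares were 1.54% and 1.92%. Limma called 5 streak genes, against 2.01% of all genes whose mean reached 10. Both B libraries lay above both A libraries for 10 of the 19 streak genes whose mean reached 10 and below them for 4. Of all such genes, 26.4% lay above and 26.0% below. The median log2 fold change of the 19 with a mean of at least 10 was 0.25. Sp5 was at 114, 133, 1416 and 1379 normalized counts, a log2 fold change of 3.49 in limma (SE 0.20, adjusted p = 0.0115). Snai1, a repressor of E-cadherin, was at 911, 938, 2731 and 2712, and the homeobox gene Nkx1-2 at 1159, 1025, 8220 and 4831. Cdx1, the caudal-type homeobox gene, named after its values were seen, was at 1822, 2141, 6714 and 11110. The 1 called lower was Fgf17, a growth factor gene, at 1544, 2020, 613 and 460 (limma -1.73, SE 0.22, adjusted p = 0.032). Streak genes that did not pass ranged widely in level. The ligand gene Nodal was at 5887, 5943, 6314 and 5025 and Foxh1, a transcription factor gene of the Nodal pathway, at 4177, 3854, 4059 and 4534. The homeobox genes Mixl1, at 43.3, 50.4, 76.1 and 69.8, and Gsc, at 45.1, 21.8, 44.0 and 27.2, were low, and Cer1 had 1 read in all 4 libraries together.

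Paraxial mesoderm and notochord arise from the streak in the embryo. Over all genes tested 1.54% were called higher and 1.92% lower, so a count of 0 higher in lists of this size is near the background. Of 12 paraxial mesoderm genes with a count 0 were higher and 1 was lower in the authors' deposited table, with a median log2 fold change of -0.22 over the 9 with a mean of at least 10. The gene called lower was the Notch ligand gene Dll1, at 842, 579, 141 and 103 normalized counts (limma -2.53, SE 0.29, adjusted p = 0.0309). Msgn1, a direct target of Tbx6 and Wnt signalling in the presomitic mesoderm, had no read in any library, like 2 others of the 15 listed genes, Ripply1 and Pcdh19. Limma called 1 gene of this list, against 2.01% of all genes whose mean reached 10.

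Of 10 notochord genes 0 passed in the authors' deposited table and 0 in limma, with 3 at an unadjusted p under 0.05 in each. Over all genes the calls were 3.46% and, in limma at a mean of at least 10, 2.01%. At an unadjusted p under 0.05 were 3181 of 30237 genes and, in limma, 4235 of 20465. Their median log2 fold change was -0.07 over 8 genes. With the authors' p adjusted over genes whose mean reached 10 or 50, 2 were called lower and 0 higher. Of all genes so adjusted, 654 and 673 were called lower and 535 and 559 higher. The smallest deposited adjusted p in the list were those of the BMP antagonist genes Nog, at 235, 167, 59.6 and 105 normalized counts (0.0518), and Chrd, at 426, 508, 235 and 318 (0.0652). The most abundant were Col2a1, a cartilage and notochord collagen, at 816, 706, 325 and 793 normalized counts, and the muscle gene Cnn1 at 758, 428, 185 and 1284, both lowest in B1. Foxa2, which this list shares with the endoderm markers, was at 154, 102, 1322 and 514. Noto, which marks the notochord itself, had 3 reads over all libraries.

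Of 12 cardiac and lateral mesoderm genes with a count, 1 was higher and 0 were lower in the authors' deposited table, against 1.54% and 1.92% of all genes tested. The median log2 fold change was 0.29 over 10 genes, and limma called 0 with 4 at an unadjusted p under 0.05. Over all genes whose mean reached 10, limma called 2.01%, and 4235 of 20465 were at an unadjusted p under 0.05. The gene called higher was Myl7, an atrial myosin light chain, at 402, 463, 854 and 773 normalized counts (adjusted p 0.00325 in the authors' deposited table, and 0.0696 in limma). Gata4, also an endoderm marker, was at 1197, 742, 11236 and 4145.

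The partners of Mga in the non-canonical Polycomb complex PRC1.6 had 0 of 15 genes called in the authors' deposited table and 0 in limma. Over all genes the calls were 3.46% and, in limma at a mean of at least 10, 2.01%. At an unadjusted p under 0.05 were 4 and 5 of the 15, against 3181 of 30237 and 4235 of 20465 genes. Both B libraries lay below both A libraries for 7 of the 15 and above them for 3. Over all genes whose mean reached 10 these shares were 26.0% and 26.4%. The most abundant were Wdr5, at 51292, 53073, 39271 and 37515 normalized counts (limma -0.44, SE 0.08, adjusted p = 0.0519), and the heterochromatin protein gene Cbx1, at 27754, 30134, 22558 and 23575 (limma -0.33, SE 0.09, adjusted p = 0.119). Limma called Wdr5 lower with equal library totals (adjusted p = 0.0484), with upper quartile scaling (adjusted p = 0.0412) and, with the spread from A1 and A2 alone, without B1 (adjusted p = 0.0346) and without B2 (adjusted p = 0.042). With the authors' p adjusted over genes whose mean reached 10 or 50, 1 gene of the list was called higher and 0 lower. Of all genes so adjusted, 535 and 559 were called higher and 654 and 673 lower. The smallest deposited adjusted p of the list was that of Yaf2, at 894, 978, 1536 and 1348 normalized counts (0.0558). Of 14 germline genes with a count that PRC1.6 is known to hold down, 0 were called higher and 2 lower in the authors' deposited table. Over all genes tested the shares were 1.54% and 1.92%. The median log2 fold change of the 14 was -0.31 in the authors' deposited table. Both B libraries lay below both A libraries for 8 of the 14 and above them for 1. Of all genes whose mean reached 10, 26.0% lay below and 26.4% above. The 2 called lower were the synaptonemal complex gene Sycp3, at 1781, 1689, 766 and 948 normalized counts, and Mael, of the piRNA pathway, at 2612, 2800, 1407 and 1500 (limma -0.90, SE 0.13, adjusted p = 0.0416). Sycp3 missed the threshold in limma (-1.02, SE 0.17, adjusted p = 0.0503), also with upper quartile scaling (adjusted p = 0.0501) and without a filter (adjusted p = 0.0504). It passed in limma with a pseudocount of 5 (adjusted p = 0.0492) and with equal library totals (adjusted p = 0.0498).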

How the data were processed

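The data are 1 table of group means from polyadenylated RNA of 4 samples. The authors used STAR, DESeq and the build mm10, per the submitters' processing notes, which state no versions. No source used here gives the counter, its strand setting or the annotation. Per the file headers, the authors deposited for each gene a mean signal (read counts divided by size factors) for each group, their fold (ratio) with its log2, and p-values before and after adjustment. The authors' test was used as deposited, at an adjusted p of 0.05 over 30237 genes. Whole reads of the 2 libraries of each group were recovered from each mean within a tolerance of 1e-06, for all 28616 genes present in group A and all 28353 present in group B. For Tbx3 and Mga a second pair also lay within the tolerance, and the closest pair was taken, the next best being at least 20.5 times farther from whole numbers in every gene. Recovery was tested on simulated data.

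Limma 3.58.1 (R 4.3.3, mean-variance trend, two-sided, Benjamini-Hochberg) was run on log2(normalized count + 1) for 20465 genes whose mean reached 10. Fold changes on this scale understate those of low genes. Positions and exon lengths are from GENCODE M21. The members, gene lists and tests were chosen with earlier results of these data known, and the lists support no independent claim. Named genes were the T-box family, up to 4 called genes of each list with the smallest adjusted p (with none, the 2 most abundant), the 2 most abundant of each marker list, the 5 nearest to T, and neighbours of T and Tbx3. Every other gene named was chosen after its values were seen. The 10 macrophage markers, led by Cd68 (1960 to 2748 normalized counts) and Lyz2 (234 to 1338), had 3 higher and 0 lower in the authors' deposited table. Over all genes tested the shares were 1.54% and 1.92%. The 3 were Lyz2, Spi1 (158, 153, 426 and 403) and Ptprc (1.84, 11.9, 45.8 and 35.5). Limma called 2 of the 10, Lyz2 (adjusted p = 0.0309) and Spi1 (adjusted p = 0.0418), against 2.01% of all genes whose mean reached 10. Ptprc missed the threshold in limma (adjusted p = 0.129). Both B libraries lay above both A libraries for 8 of the 10 and below them for 2, Cd68 among these. Of all genes whose mean reached 10, 26.4% lay above and 26.0% below.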

Additional observations from a re-analysis of the deposited data

How the results depend on the processing

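T was called in the authors' test under each of the 3 sets of genes used for adjustment, and in limma with all libraries under each pseudocount, scaling and filter tried. Over all genes the authors' test called 1047, and limma called 411, 495 with a pseudocount of 5, 448 with equal library totals, 492 with upper quartile scaling and 412 without a filter. Leaving out 1 library in limma gave 0 to 1111 called genes. Of the 10 T-box genes the authors' test called 2, limma 1 in each of the same 5 settings, and limma with 1 library left out 0 to 3, the third being Eomes without B2. Over the 7 lists of accompanying genes the count was 10, and 0 to 16 with 1 library left out. The call of Tbx20 was lost in every limma fit except the one without B2, and that of Tbx18 in every limma fit. Without A1 or A2 the spread comes from B1 and B2 alone, without B1 or B2 from A1 and A2 alone, and the lone library is assumed to vary as that pair does.

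Directions that turned belonged to genes that did not pass. With 1 library left out Tbx6 ranged from -0.10 to 0.24 (-0.018 without B2), Mga from -0.084 to 0.13 (-0.0052 without A1) and Tbx5 from -0.74 to 0.43. Mga was at -0.0038 with upper quartile scaling. The cause was not tested. Of 109 log2 fold changes of the 10 genes under other settings, 93 kept direction and side of the threshold. Another 10 lost the call, all of them of T or Tbx20, 5 turned direction and 1 gained a call. The 109 include new adjustments of the authors' p, in which the log2 fold change cannot turn. For the 8 genes not called, keeping the side means only that they stayed uncalled. No paired analysis was possible because the table names no sample and the recovered libraries carry no replicate number. Depth limits Tbx1, Tbx10 and Tbx19, with at most 30, 17 and 8 reads in a library.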
